A study of Homo sapiens with 5 samples.

Results

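Nucleotide synthesis enzymes for S phase were examined after knockdown of FAM53C in RPE-1, a line of immortalized cells from human retinal pigment epithelium. The enzymes were 9 genes chosen by name for their function, TYMS, DUT, DTYMK, TK1, DCK, RRM1, RRM2, CAD and UMPS, of 64252 identifiers in the table of counts, and all 9 passed the filter on low counts that left 15341 genes for testing. Cells were collected 48 hr after transfection with ON-TARGET control siRNA (siCtrl, 3 libraries) or with a pool of siRNAs against FAM53C (siFAM53C, 2 libraries), each at 5 µM by the labels. Duplicates are described in the methods, with no word on a choice among the controls, and all 3 siCtrl libraries entered the tests. Polyadenylated RNA was sequenced, and the values below are raw counts per gene or CPM. For CPM, the counts of a library were multiplied by its TMM factor before scaling, so the totals of CPM differ between libraries. The factors were 0.978, 0.971 and 0.992 in siCtrl 1, 2 and 3 and 1.034 and 1.026 in siFAM53C 1 and 2. Unless another test is named, each adjusted p comes from the quasi-likelihood test of edgeR, adjusted over all tested genes by the Benjamini-Hochberg method. No label says whether the libraries came from separate cultures, so the tests measure the spread between these libraries, which may be technical.

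A dividing cell has to enlarge its pools of deoxynucleotides before it copies its genome. Ribonucleotide reductase makes deoxynucleotides from ribonucleotides, thymidylate synthase and its partners supply the base that is particular to DNA, and salvage kinases recover nucleosides from outside the cell or from breakdown. Many of these enzymes are transcribed through E2F factors, which the retinoblastoma protein restrains until late G1, and several of them, RRM2 and TK1 among them, are kept low outside S phase and G2. The comparison asks whether the transcripts of these enzymes differed when FAM53C, a regulator of the kinase DYRK1A, was depleted.

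The libraries held 19260124 to 25615415 counts, and FAM53C itself was at 57.6 to 60.9 CPM in siCtrl and at 14.2 and 22.3 CPM in siFAM53C (log2 fold change -1.71, SE 0.19, edgeR adjusted p = 0.003625). Over all genes, 3.47% were lower and 0.489% higher in siFAM53C at an adjusted p under 0.05. The libraries also stood apart along the first principal component (39.8% of the variance), with siCtrl 3 and siFAM53C 2 at one end, siCtrl 1 and siCtrl 2 at the other, and siFAM53C 1 between them. Each enzyme is therefore also given within the sides of this split (siFAM53C 1 against siCtrl 1 and siCtrl 2, and siFAM53C 2 against siCtrl 3) and in a model that adds the side as a covariate, under which 10.7% of all genes were lower and 6.76% higher. The sides follow the values of these same libraries. On the component siFAM53C 1 was at 0.26, siCtrl 1 at -31.5 and siCtrl 3 at 33.7, so the side of siFAM53C 1 was a choice. Calls of that model are therefore given as a description, not as separate support. Without siCtrl 3, 886 genes were lower and 414 higher, against 533 and 75 with all libraries. Of 10 markers of differentiated retinal pigment epithelium, MITF and OTX2 were above 10 CPM in every library, and RPE65, RGR and TTR had no count in any library. Markers of blood, endothelium, neurons and glia did not reach 10 CPM in all libraries for any gene, and PTPRC, the highest of them, was at most 1.05 CPM.

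None of the 9 enzymes passed the threshold. In edgeR, 0 of 9 were called in either direction, against 3.96% of all genes tested. DESeq2 and limma-voom also called 0 of 9, against 8.66% and 3.83% of the genes they tested. At an unadjusted p under 0.05 in edgeR the number was 0 of 9, against 17.1% of all genes (10.5% lower and 6.61% higher). This number was not stable. It was 4 with the side as covariate, 3 without siCtrl 3 and 2 with total counts only. With replicate numbers as blocks it was 3 by the titles and 2 by the library names. The share of all genes at that threshold was not taken in these fits. The log2 fold change was below 0 for 7 enzymes and above 0 for RRM2 and CAD, where 7391 of all 15341 genes tested were below 0. The median was -0.18 over the 9 and 0.016 over all genes. With the side as a covariate the median of the 9 was -0.099, and within the sides it was -0.22 and 0.073. RRM1, DTYMK and UMPS were lower in both siFAM53C libraries than in any siCtrl library and CAD was higher in both, 4 of 9 enzymes without overlap where 35.5% of all genes showed none. Summed over the enzymes, the level was 1546, 1657 and 1580 CPM in siCtrl 1, 2 and 3 and 1558 and 1713 CPM in siFAM53C 1 and 2. These sums overlapped, and RRM2 was the largest part of the sum in every library. As a share of raw counts the enzymes made 0.1511, 0.1607 and 0.1566% in siCtrl and 0.1609 and 0.1755% in siFAM53C. Both siFAM53C shares were above every control, so the overlap of the sums depended on the TMM factors. Processed pseudogenes of DUT, RRM2 and TYMS, which could take reads from their parents, were at most 0.255 CPM. How reads that align to several places were counted is not given, so these levels cannot show whether the parents lost reads. In bulk RNA, fewer cells in S phase and less transcript per cell cannot be told apart.

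**Figure D1:**
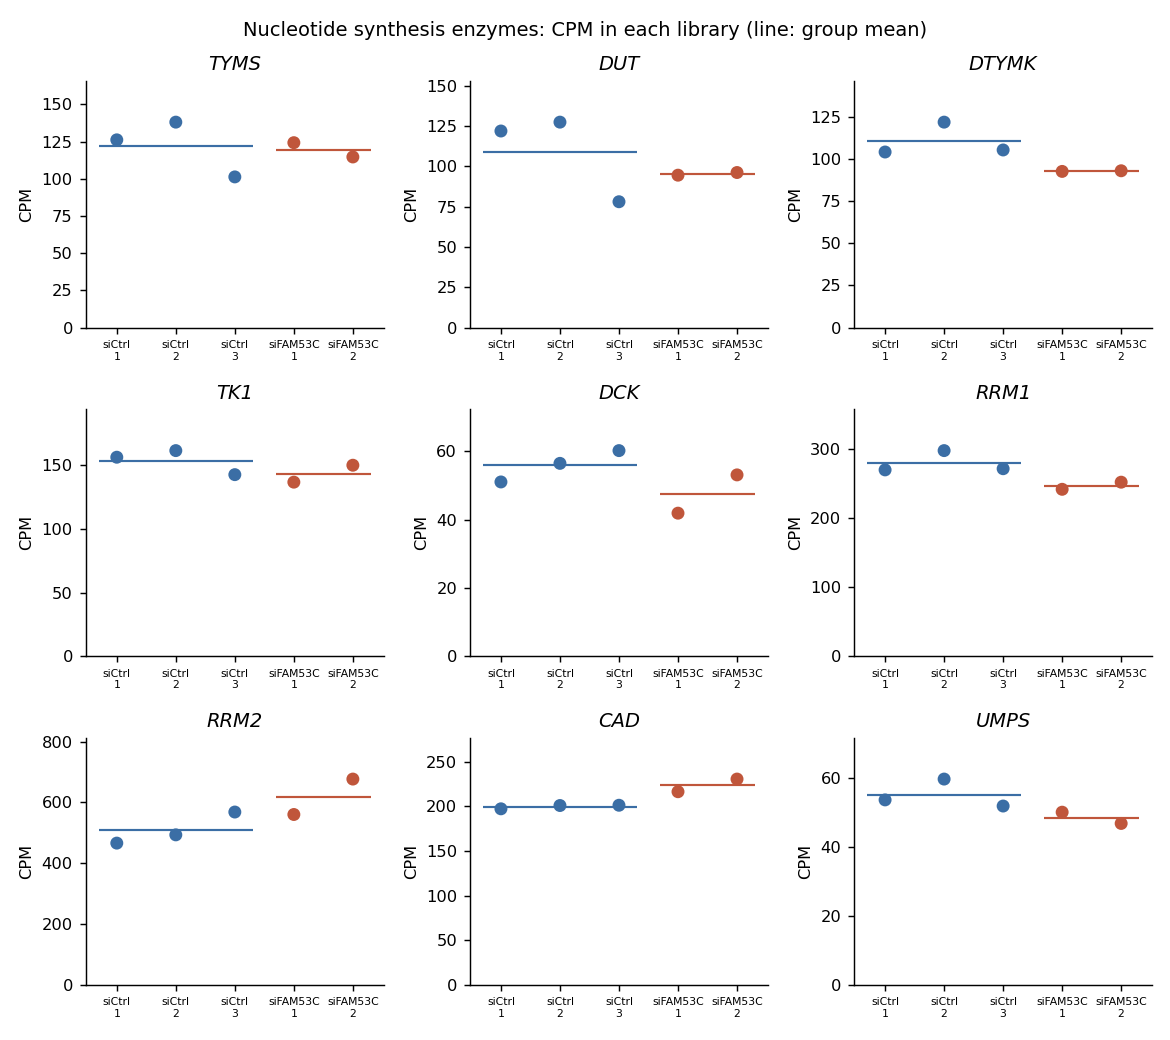
CPM of each enzyme in the 3 siCtrl libraries (blue) and the 2 siFAM53C libraries (red), 1 point per library, with a line at each group mean and each vertical axis starting at 0. RRM2 reached 677 CPM in siFAM53C 2 and was at 466 CPM in siCtrl 1, whereas DUT was lowest in a control, siCtrl 3, at 78.1 CPM.

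Ribonucleotide reductase is made of a large catalytic subunit, RRM1, and a small subunit, RRM2, which carries the radical that starts the reaction and is destroyed after S phase. The letters upstream of both genes are shown because the pair was set side by side in each library and because RRM2 was the one enzyme called in the fit with the side as covariate. The windows run from 250 bases before to 50 bases after a start site in RefSeq on GRCh38.p14, 5′ to 3′ on the coding strand, at chr2:10122489-10122788 (plus strand) for RRM2 and at chr11:4094435-4094734 (plus strand) for RRM1. Capitals mark CCAAT, the box bound by NF-Y, searched on both strands.
RRM2: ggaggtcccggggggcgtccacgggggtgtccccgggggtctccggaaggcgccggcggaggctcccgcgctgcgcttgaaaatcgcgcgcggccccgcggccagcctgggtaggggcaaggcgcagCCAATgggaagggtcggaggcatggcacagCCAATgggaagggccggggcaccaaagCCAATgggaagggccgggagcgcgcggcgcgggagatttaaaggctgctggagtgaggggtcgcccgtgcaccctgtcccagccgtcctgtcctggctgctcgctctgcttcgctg
RRM1: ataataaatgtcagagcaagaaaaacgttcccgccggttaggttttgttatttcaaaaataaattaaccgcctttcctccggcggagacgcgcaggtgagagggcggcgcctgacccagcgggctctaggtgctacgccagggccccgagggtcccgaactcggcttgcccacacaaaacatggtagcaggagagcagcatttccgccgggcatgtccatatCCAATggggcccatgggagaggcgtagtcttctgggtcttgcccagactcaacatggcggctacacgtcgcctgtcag
In the RRM2 window the box occurred 3 times, at -123, -93 and -66 from the start site, each time followed by the same letters gggaaggg, and in the RRM1 window it occurred once, at -28. RefSeq lists a further start site of RRM2 whose window holds the box once. CCAAT was present in a promoter window of 5 of the 9 enzymes (DTYMK, TK1, RRM1, RRM2 and CAD) and in 43.0% of the 10629 tested genes with a window.

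RRM2 (ENSG00000171848, chromosome 2 of GRCh38, 10120698 to 10211725, plus strand) had the highest count of the 9 enzymes in every library. It had 10972, 9420 and 10842 counts, or 466, 493 and 568 CPM, in siCtrl 1, 2 and 3, and 14815 and 15940 counts, or 560 and 677 CPM, in siFAM53C 1 and 2. The siFAM53C libraries lay at the upper end, but siCtrl 3 lay above siFAM53C 1, so the groups overlapped. The log2 fold change was 0.28 (SE 0.14, 95% interval -0.041 to 0.60, edgeR adjusted p = 0.36). Within the sides the difference was 0.22 and 0.25, above 0 in both. With the side as covariate, RRM2 was called higher (log2 fold change 0.24, SE 0.074, edgeR adjusted p = 0.03898). RRM2 stayed above 0 in all 14 fits, from 0.14 to 0.41, and this was the one fit that called it.

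RRM1 (ENSG00000167325, chromosome 11, 4094707 to 4138932, plus strand) went the other way. It was at 269.5, 297 and 271 CPM in siCtrl 1, 2 and 3 and at 241 and 252 CPM in siFAM53C 1 and 2, so both siFAM53C libraries were below every control. The log2 fold change was -0.18 (SE 0.11, 95% interval -0.43 to 0.066, edgeR adjusted p = 0.455), and within the sides the difference was -0.23 and -0.11. With the side as covariate it was -0.18 (edgeR adjusted p = 0.1562), and no fit called RRM1. The antisense gene RRM1-AS1, which shares 63 exon bases with it, was at most 0.085 CPM.

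The balance of the subunits was read within each library as a ratio of CPM per kilobase of annotated exon, which removes the scaling of the library. RRM2 to RRM1 was 0.799, 0.767 and 0.969 in siCtrl 1, 2 and 3 and 1.07 and 1.24 in siFAM53C 1 and 2. Every siFAM53C library was above every control, by a log2 difference of 0.46 between the group means (exact two-sided permutation p = 0.2 over 10 assignments of the libraries, adjusted p = 0.4 over 4 ratios), where 3 against 2 libraries cannot go below p = 0.1. The difference was 0.45 and 0.36 within the sides and between 0.35 and 0.56 when a library was left out. The size of the ratio depends on the length used for each gene, since RRM2 has 9153 annotated exon bases and a MANE Select transcript (the single reference transcript per gene) of 3258 bases. With MANE Select lengths it was 1.67, 1.60 and 2.02 in siCtrl and 2.24 and 2.59 in siFAM53C, with the same log2 difference.

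RRM2B, the small subunit induced by p53 that serves DNA repair and mitochondrial DNA outside S phase, is the alternative partner of RRM1. It was at 43.9, 51.9 and 35.3 CPM in siCtrl 1, 2 and 3 and at 29.1 and 21.4 CPM in siFAM53C 1 and 2. All controls were above both siFAM53C libraries, with a log2 fold change of -0.79 (SE 0.20, edgeR adjusted p = 0.08662). RRM2B passed with the side as covariate (edgeR adjusted p = 0.00041) and in DESeq2 (adjusted p = 0.0105), but not in limma-voom (adjusted p = 0.09283). The ratio of RRM2 to RRM2B per kilobase of exon was 6.26, 5.60 and 9.47 in siCtrl 1, 2 and 3 and 11.3 and 18.7 in siFAM53C 1 and 2. The groups did not overlap, and the log2 difference was 1.07 (exact two-sided permutation p = 0.2, adjusted p = 0.4 over 4 ratios), with 0.94 and 0.98 within the sides and 0.71 to 1.43 when a library was left out.

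**Figure D2:**
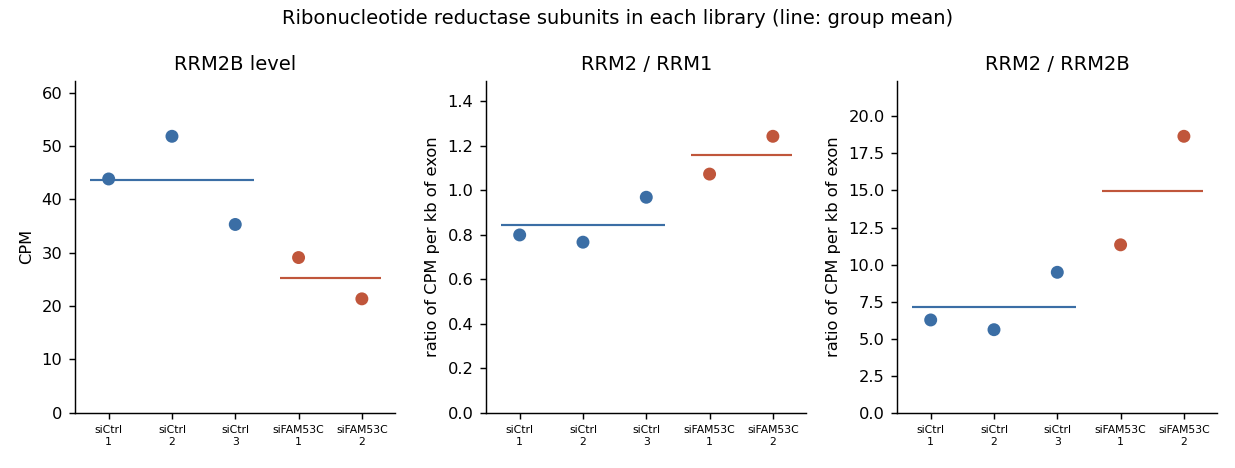
RRM2B in CPM and the ratios of RRM2 to RRM1 and to RRM2B, from CPM per kilobase of annotated exon, in each of the 5 libraries (siCtrl blue, siFAM53C red, line at the group mean, axes from 0). RRM2 to RRM1 was at most 0.969 in siCtrl and at least 1.07 in siFAM53C, and RRM2B was at least 35.3 CPM in siCtrl and at most 29.1 CPM in siFAM53C.

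Thymidylate is made by TYMS, which methylates dUMP, from dUMP that DUT releases by cleaving dUTP. DUT also keeps uracil out of DNA. Their start-site windows are shown because TYMS and DUT were set side by side as a ratio. Capitals mark TTTCCCGC, TTTCGCGC, TTTGCCGC or TTTGGCGC, the E2F letters searched on both strands, in RefSeq windows of GRCh38.p14 at chr18:657403-657702 (plus strand) for TYMS and chr15:48331947-48332246 (plus strand) for DUT.
TYMS: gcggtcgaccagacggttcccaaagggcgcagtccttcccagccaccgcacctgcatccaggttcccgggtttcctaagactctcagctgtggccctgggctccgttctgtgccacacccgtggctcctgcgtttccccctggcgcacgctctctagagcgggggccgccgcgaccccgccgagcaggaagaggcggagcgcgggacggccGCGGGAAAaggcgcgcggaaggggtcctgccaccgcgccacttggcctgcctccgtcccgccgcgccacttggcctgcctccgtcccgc
DUT: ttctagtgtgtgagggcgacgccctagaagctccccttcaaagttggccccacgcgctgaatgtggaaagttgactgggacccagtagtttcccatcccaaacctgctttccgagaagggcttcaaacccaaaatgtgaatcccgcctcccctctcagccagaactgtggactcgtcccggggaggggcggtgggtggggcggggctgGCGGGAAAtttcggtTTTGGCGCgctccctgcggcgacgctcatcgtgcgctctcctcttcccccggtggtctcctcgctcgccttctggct
TYMS held TTTCCCGC at -39 on the opposite strand, and DUT held it at -42 on the opposite strand and TTTGGCGC at -27 on the coding strand. For DUT, windows at 3 other start sites held none of the E2F letters. An E2F match was present in 3 of the 9 enzymes (TYMS, DUT and DCK) and in 6.68% of the tested genes with a window. The enzymes were chosen for a function tied to E2F, so this share is a description.

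TYMS (ENSG00000176890, chromosome 18, 657653 to 673578, plus strand) was at 126.2, 138.1 and 101.3 CPM in siCtrl 1, 2 and 3 and at 124 and 115 CPM in siFAM53C 1 and 2. Both siFAM53C values lay inside the control range. The log2 fold change was -0.028 (SE 0.14, 95% interval -0.36 to 0.30, edgeR adjusted p = 0.951), and its sign depended on the processing, above 0 in 5 of 14 fits. Within the sides TYMS differed by -0.087 and 0.18, and with the side as covariate by 0.026 (edgeR adjusted p = 0.887). Of its 2421 exon bases, 1160 overlap opposite-strand genes. Of these, ENOSF1 was at 17.2, 17.9 and 27.1 CPM in siCtrl and at 18.8 and 21.9 CPM in siFAM53C, and TYMSOS was at most 2.38 CPM. If the counting did not use strand, reads of TYMS and of these genes cannot be told apart.

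DUT (ENSG00000128951, chromosome 15, 48331011 to 48343373, plus strand) varied more between libraries than any other of the enzymes. It was at 122, 127 and 78.1 CPM in siCtrl 1, 2 and 3 and at 94.5 and 96.2 CPM in siFAM53C 1 and 2. The siFAM53C libraries had an SD of 1.16 CPM (n = 2) and lay between the controls, of which siCtrl 3 was lowest. Over all libraries the log2 fold change was -0.20 (SE 0.20, 95% interval -0.67 to 0.28, edgeR adjusted p = 0.710). The direction was opposite on the sides of the split, -0.40 and 0.30, and with the side as covariate the value was -0.099 (edgeR adjusted p = 0.731). Without siCtrl 3, DUT was called lower (log2 fold change -0.38, edgeR adjusted p = 0.04485), the one setting of those run that called it. DUT-AS1, which shares exon bases with DUT (533 of 3674 are shared with the opposite strand), was at most 1.32 CPM. The ratio of TYMS to DUT per kilobase of exon was 1.57, 1.65 and 1.97 in siCtrl 1, 2 and 3 and 2.00 and 1.81 in siFAM53C 1 and 2, with overlap (log2 difference 0.14, exact two-sided permutation p = 0.3, adjusted p = 0.4 over 4 ratios). It was 0.31 and -0.12 within the sides, opposite in sign, and the difference was 0.074 without siFAM53C 1, 0.079 without siCtrl 1 and 0.24 without siCtrl 3.

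DTYMK (ENSG00000168393, chromosome 2, 241675747 to 241686944, minus strand) phosphorylates thymidylate from either route and stands at the point where both meet. It was at 104, 122 and 105 CPM in siCtrl 1, 2 and 3 and at 92.6 and 93.0 CPM in siFAM53C 1 and 2. Both siFAM53C libraries were below every control and close to each other. It differed by -0.25 on the log2 scale (SE 0.11, 95% interval -0.51 to 0.0083, unadjusted p = 0.0561 and edgeR adjusted p = 0.308), the lowest value among the 9 enzymes, though not called. The difference was -0.28 and -0.18 within the sides, and the adjusted p reached 0.08102 with the side as covariate.

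TK1 and DCK are the kinases of the salvage route in the cytosol, TK1 for thymidine and DCK for deoxycytidine and the purine deoxynucleosides. TK1 rises with S phase in most cells, whereas DCK is expressed more evenly over the cycle. Their RefSeq windows on GRCh38.p14 are shown as the remaining pair set side by side, at chr17:78187003-78187302 (minus strand) for TK1 and chr4:70993399-70993698 (plus strand) for DCK, with capitals for CCAAT or the E2F letters.
TK1: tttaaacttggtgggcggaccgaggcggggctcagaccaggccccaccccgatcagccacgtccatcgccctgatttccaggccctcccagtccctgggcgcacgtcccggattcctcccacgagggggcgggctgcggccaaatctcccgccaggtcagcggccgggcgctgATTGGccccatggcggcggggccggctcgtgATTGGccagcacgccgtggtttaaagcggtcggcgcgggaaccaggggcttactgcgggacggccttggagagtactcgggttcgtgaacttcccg
DCK: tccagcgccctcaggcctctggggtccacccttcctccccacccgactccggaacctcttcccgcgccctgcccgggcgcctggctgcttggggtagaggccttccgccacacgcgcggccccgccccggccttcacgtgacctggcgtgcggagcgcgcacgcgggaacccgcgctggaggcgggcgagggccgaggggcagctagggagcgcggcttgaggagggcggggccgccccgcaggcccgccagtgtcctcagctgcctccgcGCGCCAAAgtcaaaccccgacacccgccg
The TK1 window held CCAAT at -77 and -46 on the opposite strand, and the DCK window held TTTGGCGC at +22 on the opposite strand. A further TK1 start site in RefSeq had neither.

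TK1 (ENSG00000167900, chromosome 17, 78174091 to 78187233, minus strand) was at 156, 162 and 143 CPM in siCtrl 1, 2 and 3 and at 137 and 150 CPM in siFAM53C 1 and 2. The groups overlapped, with a log2 fold change of -0.098 (SE 0.11, 95% interval -0.35 to 0.15, edgeR adjusted p = 0.725). Within the sides the difference was -0.22 and 0.073, and with the side as covariate it was -0.092 (edgeR adjusted p = 0.537). DCK (ENSG00000156136, chromosome 4, 70992538 to 71030914, plus strand) was at 51.1, 56.5 and 60.2 CPM in siCtrl 1, 2 and 3 and at 41.9 and 53.1 CPM in siFAM53C 1 and 2. Its lowest value was in siFAM53C 1, and siFAM53C 2 fell among the controls. DCK differed by -0.24 on the log2 scale (SE 0.14, 95% interval -0.56 to 0.091, edgeR adjusted p = 0.463), with -0.36 and -0.18 within the sides. The covariate fit gave -0.28 for DCK (edgeR adjusted p = 0.06409). TK1 to DCK per kilobase of exon was 5.15, 4.81 and 3.98 in siCtrl 1, 2 and 3 and 5.49 and 4.75 in siFAM53C 1 and 2, with overlap (log2 difference 0.14, exact two-sided permutation p = 0.6, adjusted p = 0.6 over 4 ratios). The difference was 0.14 and 0.25 within the sides, but 0.037 without siCtrl 3 and 0.040 without siFAM53C 1, and 0.22 without siCtrl 1 and 0.25 without siFAM53C 2.

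CAD and UMPS build the pyrimidine ring. CAD carries the first steps of the route in a single protein, and UMPS carries the last steps, which give UMP. CAD (ENSG00000084774, chromosome 2, 27217369 to 27243943, plus strand) was at 197, 201 and 201 CPM in siCtrl 1, 2 and 3, the tightest control group of the 9, and at 217 and 231 CPM in siFAM53C 1 and 2. Both siFAM53C libraries were above every control. The difference on the log2 scale was 0.16 (SE 0.098, 95% interval -0.067 to 0.39, edgeR adjusted p = 0.471), with 0.12 and 0.20 within the sides. The covariate fit gave 0.15 (edgeR adjusted p = 0.2008). CAD was above 0 in all 14 fits and called in none.

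UMPS (ENSG00000114491, chromosome 3, 124730433 to 124749273, plus strand) was at 53.6, 59.7 and 51.9 CPM in siCtrl 1, 2 and 3 and at 50.1 and 46.8 CPM in siFAM53C 1 and 2. Both siFAM53C libraries were below every control, with siCtrl 3 close above siFAM53C 1. On the log2 scale UMPS differed by -0.18 (SE 0.11, 95% interval -0.45 to 0.082, edgeR adjusted p = 0.481), with -0.18 and -0.15 within the sides, and -0.17 with the side as covariate (edgeR adjusted p = 0.283). UMPS and CAD, the ends of the same route, thus had fold changes of opposite sign, neither of them called.

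**Figure D3:**
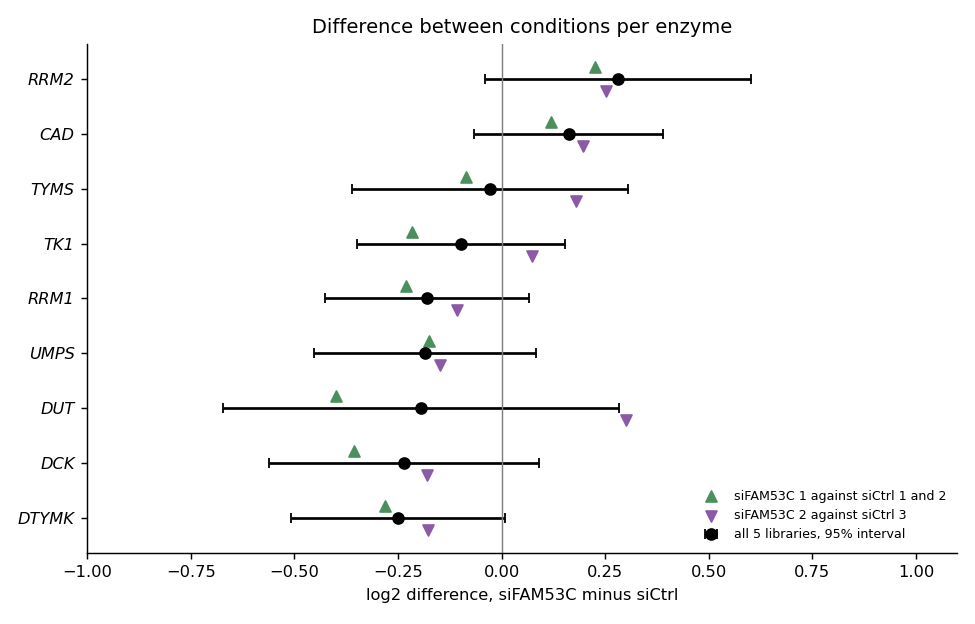
Log2 difference between siFAM53C and siCtrl for each enzyme from all 5 libraries (black, with the 95% interval) and within each side of the library split (green and purple triangles, no test). Every interval contains 0, and the triangles lie on opposite sides of 0 for DUT, TYMS and TK1.

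Levels were compared between enzymes per kilobase of annotated exon. In siCtrl the order was TK1 at 83.2 ± 5.30 CPM per kilobase (SD, n = 3), RRM1 at 66.0 ± 3.69, RRM2 at 55.6 ± 5.79, TYMS at 50.3 ± 7.76, DTYMK at 46.0 ± 4.13, DUT at 29.7 ± 7.36, CAD at 23.7 ± 0.263, DCK at 18.03 ± 1.49 and UMPS at 7.33 ± 0.547. The neighbours RRM2 and TYMS, TYMS and DTYMK, and DUT and CAD had overlapping ranges of mean ± SD. In siFAM53C the same scale put TK1 at 77.7 ± 5.09 (SD, n = 2), RRM2 at 67.5 ± 9.01, RRM1 at 58.3 ± 1.72, TYMS at 49.4 ± 2.79, DTYMK at 38.7 ± 0.114, CAD at 26.5 ± 1.19, DUT at 25.9 ± 0.316, DCK at 15.3 ± 2.56 and UMPS at 6.45 ± 0.307. TK1 and RRM2, RRM2 and RRM1, and CAD and DUT were within their spread here. RRM1 and RRM2, and DUT and CAD, thus exchanged places between the conditions on this scale. Per kilobase of the MANE Select transcript, a choice made after seeing the data, RRM2 was first in both conditions (156 and 190 CPM per kilobase) and the order of the 9 was the same in both.

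Over the 5 libraries, the patterns of the enzymes fell close together for some pairs and apart for others. Likeness was measured as the root mean square distance between log2 CPM values centred on the mean of each gene. The closest pairs were DTYMK with RRM1 (0.048) and DTYMK with UMPS (0.052), and the farthest was DUT with RRM2 (0.41). For the 3 enzymes whose log2 CPM ranged most, the nearest of 9301 genes with a mean of at least 10 CPM were as follows. DUT, with a range of 0.71, was nearest to DDX19B (0.054), NME1 (0.059) and ISCA2 (0.067). NME1 is a nucleoside diphosphate kinase, which makes triphosphates from diphosphates. RRM2, with a range of 0.54, was nearest to PALLD (0.021), RFK (0.022) and PIMREG (0.034). DCK, with a range of 0.52, was nearest to TIMP2 (0.0072), BORA (0.015) and DNAJC10 (0.025). With 5 libraries and so many genes such distances are a description, and many genes lie close to any pattern.

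The rest of nucleotide metabolism was read from 81 other genes in 7 lists, of which 73 were tested. In edgeR, 1 passed as lower (PPAT) and 0 as higher, where 3.47% of all genes were lower and 0.489% higher. Their median log2 fold change was -0.068. At an unadjusted p under 0.05, 7 were lower and 3 higher, where the shares over all genes were 10.5% and 6.61%. With the side as covariate, 7 were lower and 3 higher, where the shares over all genes were 10.7% and 6.76%. DESeq2 called 3 lower and 2 higher, where it called 8.66% of all genes in either direction. The nearest list in function, pyrimidine synthesis and CTP, had 0 of 4 tested genes called and a median of -0.075. In it, CMPK1, the kinase for UMP and CMP, had a log2 fold change of -0.49 (edgeR adjusted p = 0.05643), and passed with the side as covariate (adjusted p = 0.00096). CMPK1 also passed in DESeq2 (adjusted p = 0.006668) but not in limma-voom (adjusted p = 0.0572). CTPS1, which makes CTP, was at -0.17 (adjusted p = 0.480).

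Purine synthesis had 1 of 15 genes lower and none higher, with a median of -0.15. PPAT, the first committed enzyme of that route, fell from 71.1, 69.1 and 72.3 CPM in siCtrl 1, 2 and 3 to 40.9 and 44.6 CPM in siFAM53C 1 and 2. The groups were far apart for their spread, with a log2 fold change of -0.73 (SE 0.11, edgeR adjusted p = 0.01082). The call was lost without siCtrl 1, without siCtrl 2, and without either siFAM53C library, at an adjusted p of 0.06318 to 0.1245. PRPS1, which makes the ribose donor for purines and pyrimidines alike, had a log2 fold change of 0.50 (edgeR adjusted p = 0.09709). Both siFAM53C libraries were above every control, and PRPS1 was called higher with the side as covariate (edgeR adjusted p = 0.002561) and in DESeq2 (adjusted p = 0.02776). In limma-voom PRPS1 was not called (adjusted p = 0.1141).

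The folate cycle, which gives TYMS its methyl donor, had 0 of 13 tested genes called and a median of -0.17, and before adjustment 1 gene was lower and 0 were higher at p under 0.05. GGH, which trims folate polyglutamates, was at 67.9, 84.5 and 73.0 CPM in siCtrl 1, 2 and 3 and at 50.9 and 58.8 CPM in siFAM53C 1 and 2. Both siFAM53C libraries were below every control, with a log2 fold change of -0.45 (SE 0.13, edgeR adjusted p = 0.1303), and with the side as covariate GGH was called lower (edgeR adjusted p = 0.007861). GGH was not called in DESeq2 (adjusted p = 0.06845) or limma-voom (adjusted p = 0.1341). SHMT2, the mitochondrial enzyme that takes one-carbon units from serine, had a log2 fold change of -0.32 (edgeR adjusted p = 0.4892).

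The list for limiting or breaking down nucleotides, as far as given here, had 0 of 17 genes called and a median of 0.064. Before adjustment 2 were lower and 0 higher at p under 0.05. RRM2B, described above, was placed in this list, though it is a subunit of the reductase that makes deoxynucleotides. It had the lowest log2 fold change in the list among genes with a mean of at least 10 CPM. NT5E, the surface enzyme that turns AMP into adenosine, was at 1302, 1321 and 1509 CPM in siCtrl 1, 2 and 3 and at 1046 and 1145 CPM in siFAM53C 1 and 2. All controls were above both siFAM53C libraries, with a log2 fold change of -0.33 (SE 0.13, edgeR adjusted p = 0.2373), and with the side as covariate NT5E was called lower (edgeR adjusted p = 0.002744). NT5E was not called in DESeq2 (adjusted p = 0.106) or limma-voom (adjusted p = 0.207).

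In the remaining lists no gene was called at an adjusted p under 0.05 in edgeR. At an unadjusted p under 0.05, 1 salvage enzyme, 0 nucleotide kinases, 0 transporters and 2 S phase reference genes were lower, and 1, 0, 1 and 1 were higher. Salvage enzymes (10 tested) had a median of -0.067, with TK2, the mitochondrial thymidine kinase, at 0.43 (edgeR adjusted p = 0.2047) and UPP1, uridine phosphorylase, at -0.34 (adjusted p = 0.183). With the side as covariate TK2 was called higher (edgeR adjusted p = 0.03272) and UPP1 lower (edgeR adjusted p = 0.01552). DESeq2 and limma-voom called neither. Nucleotide kinases (10 tested) had a median of -0.047, with NME6 at -0.24 (adjusted p = 0.4515) and NME4 at 0.19 (adjusted p = 0.662). Of the transporters, 4 were tested and the median was -0.094, and SLC29A1, the main equilibrative nucleoside carrier, was at -0.036 (adjusted p = 0.919). SLC29A2, a related carrier of low level named after its values were seen, was at 1.66, 2.62 and 1.68 CPM in siCtrl 1, 2 and 3 and at 5.71 and 4.63 CPM in siFAM53C 1 and 2. It differed by 1.382 on the log2 scale (SE 0.33, edgeR adjusted p = 0.06931), and was called higher in DESeq2 (adjusted p = 0.0124) and with the side as covariate (edgeR adjusted p = 0.004453). In limma-voom SLC29A2 was not called (adjusted p = 0.05654). The 14 S phase reference genes, such as replication factors, had 12 values below 0, where 7391 of all 15341 genes tested were below 0. Their median was -0.17 against -0.18 for the 9 enzymes, but -0.15 against -0.099 with the side as covariate. Within the sides their medians were -0.15 and -0.11, against -0.22 and 0.073 for the enzymes. The values largest in size were those of MCM6, a subunit of the replicative helicase, at -0.33 (adjusted p = 0.2471) and of GMNN, an inhibitor of origin licensing, at -0.28 (adjusted p = 0.2296), and with the side as covariate MCM6 was called lower (edgeR adjusted p = 0.01731). DESeq2 and limma-voom did not call MCM6. E2F1, a transcription factor of S phase genes and also named after its values were seen, was at 0.28 (edgeR adjusted p = 0.276), higher in both siFAM53C libraries than in any control.

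**Figure D4:**
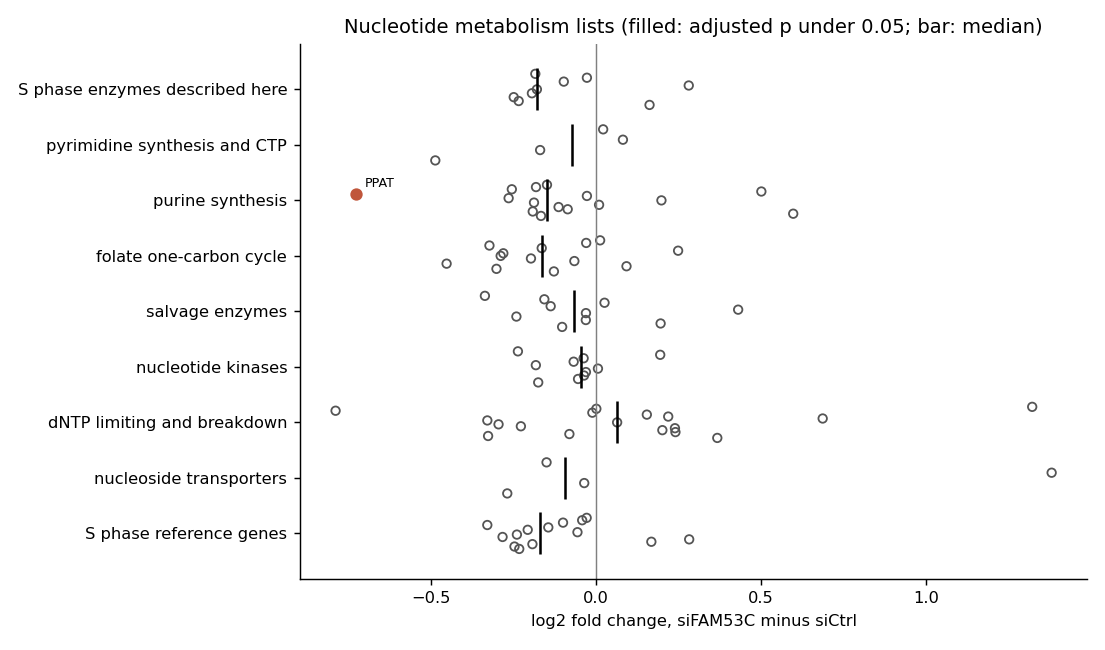
Log2 fold change between siFAM53C and siCtrl for every tested gene of each list, 1 circle per gene, with a bar at the list's median and filled circles for an edgeR adjusted p under 0.05. The filled circle is PPAT at -0.73, and all 9 enzymes in the top row are open.

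The 3′ UTRs were searched for GACAAGA, a heptamer whose 1279 holders among 12010 tested genes with a MANE Select 3′ UTR had a median log2 fold change of -0.20 against 0.020 for the other genes. Of the 9 enzymes only UMPS held it, where 10.65% of the tested genes did, and 5 of the 73 other nucleotide genes held it. The UMPS site is shown because it is the one match among the enzymes, with 11 bases on each side and the heptamer in capitals, on GRCh38 at chr3:124748544-124748572 (plus strand).
UMPS: gtcttcctctaGACAAGAggcagagggct
UMPS was at -0.18 and not called, and the other enzymes, which lack the heptamer, had a median of -0.14. The heptamer was chosen with results of these data known.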

How the data were processed

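Raw counts per gene, deposited by the authors without normalization, came from polyA RNA of RPE-1 cells: reads were trimmed with cutadapt 2.10, aligned as reverse-stranded by HISAT2 (hg38) and counted by featureCounts. The annotation release and the strand setting for counting are not given in the sources used here. Symbols and positions are from GENCODE release 44 (56105 of 64252 identifiers matched), promoters from RefSeq on GRCh38.p14.
Groups came from the labels. In R 4.3.3, edgeR 4.0.16 (filterByExpr with a minimum count of 10 and total of 15, TMM, condition only, robust quasi-likelihood test) compared all 5 libraries, with Benjamini-Hochberg adjustment over 15341 genes and a threshold of 0.05. A prior count of 2 entered log2 CPM. The scripts were tested on simulated counts. Alternatives were DESeq2 1.42.0, limma-voom (limma 3.58.1), other size factors, no filter, replicate blocks, a term for the library split and each library left out.
The enzymes, lists, heptamer and library split were chosen with earlier results of these data known. Besides the 9 enzymes and FAM53C, each list gave its genes past the threshold (at most 4) or, where fewer than 2 passed, the 2 with the largest change and a mean of at least 10 CPM. Some genes of these pathways are not reported here, and the counts and medians of the lists leave them out. Promoters are shown for enzymes called in either fit and for pairs set side by side. Library totals of 19260124 to 25615415 counts set the counting error, which is small for the enzymes (990 counts or more in every library).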

Additional observations from a re-analysis of the deposited data

How the results depend on the processing

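How often changes as small as those of the enzymes would be called with 2 and 3 libraries was not tested. DUT and RRM2 were the enzymes called under any alternative. The number of enzymes lower was 0 to 1 when a library was left out, 1 being DUT without siCtrl 3, and the number higher was 1 with a term for the library split, that of RRM2. TYMS turned above 0 with the term for the split (0.026), with a replicate block by library names (0.078), with total counts only (0.045), without siCtrl 2 and without siFAM53C 2 (range -0.14 to 0.072 over the libraries left out). RRM2 and CAD stayed above 0, and the enzymes other than TYMS below 0, in all 14 fits.
For the other nucleotide genes, 1 was lower and 0 higher, against 3 and 2 with DESeq2, 4 and 2 with no filter, 7 and 3 with the split term, and 7 and 3 at an unadjusted p under 0.05. Leaving out a library gave 0 to 4 lower and 0 to 1 higher, with 4 and 1 without siCtrl 3. Over all genes, 533 were lower and 75 higher, against 888 and 254 with DESeq2, 961 and 375 with no filter, 1636 and 1037 with the split term, 1607 and 1014 at an unadjusted p under 0.05, and 121 higher with total counts only. Leaving out a library gave 157 to 886 lower and 6 to 414 higher, both highest without siCtrl 3. The cause of these shifts was not tested. FAM53C differed by -2.08 and -1.37 within the sides, and the log2 differences of the ratios stayed above 0 with each library left out, though TYMS to DUT (0.074 to 0.24) and TK1 to DCK (0.037 to 0.25) moved by over 1.5 times.
The replicate numbers differ between titles and library names for siFAM53C 2, which has the number 3 in its library name. Deviations from the group means correlated by 0.17 for the libraries numbered 1, by -0.28 for siCtrl 2 with siFAM53C 2 (the titles) and by 0.37 for siCtrl 3 with siFAM53C 2 (the library names). With 2 siFAM53C libraries, each value for siFAM53C 2 is that for siFAM53C 1 with the sign reversed, so the values are not independent. For siCtrl 2 with siFAM53C 1, which no numbering pairs, the correlation was 0.28. Either numbering gives 2 pairs, and no label says that a number marks a shared culture or day, so the numbers were not treated as pairs. A replicate block by the titles gave 6 lower and 1 higher among the other nucleotide genes and 856 and 355 over all genes, a block by the library names 6 and 3, and 1350 and 642, and neither block called an enzyme.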
